A study of Mus musculus with 2 samples.

Results

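The 10 genes described here are ligands, receptors and feedback inhibitors of fibroblast growth factor (FGF) signalling. They are the ligands *Fgf1*, *Fgf2*, *Fgf7* and *Fgf10*, the receptors *Fgfr1*, *Fgfr2* and *Fgfr3*, and the Sprouty genes *Spry1*, *Spry2* and *Spry4*. They were chosen by name from the 49492 genes of the count table. All 10 reached the minimum of 20 reads, summed over the pair of libraries, that 17356 genes of the table reached.

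Mammary basal cells surround the luminal cells of the ducts, can contract, and include the mammary stem cells. They were sorted by flow cytometry from adult wild-type female mice. The gate took lineage-negative cells with CD24 and high CD29, after removal of cells with CD45, CD31 or TER119. CL basal cells came from mice given clodronate liposomes (CL), which deplete macrophages because these cells engulf the vesicles and die of the drug, and Ctrl basal cells came from control mice, which the series design describes as given saline and the sample label as given no treatment. Both samples were labelled day 7. Each group was 1 library, and how many mice stood behind a library was not given in the sources used here. Without replicates, the differences below could not be checked against a spread between animals, and no p-value is given. Each one is a difference between these 2 libraries, not between the conditions, and intervals cover counting error only.

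FGF ligands bind receptor tyrosine kinases at the cell surface together with heparan sulfate. The activated receptors pass the signal through adaptor proteins to the RAS-MAPK cascade, which induces transcription factors of the ETS and AP-1 families. The same signal induces inhibitors that dampen it, among them the Sprouty proteins and dual-specificity phosphatases. In the mammary gland, *Fgf10* from the mesenchyme and the epithelial form of *Fgfr2* are needed for the gland to form, and FGF ligands drive branching of mammary epithelium in culture.

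The Ctrl basal library held 37846008 counts and the CL basal library 38962512, a ratio of 1.03. A gene with a count of 0 could still lie at up to 3 counts, which as a depth-scaled level (CPM) is 0.0782 in Ctrl basal and 0.078 in CL basal. Markers of basal cells were abundant in both libraries, with a summed level of 19580 TPM (a level scaled for exonic length and depth) in Ctrl basal and 21090 in CL basal over 10 genes, and none of the 10 changed by 1.5-fold. Markers of other cells were present and mostly lower in CL basal. Of all 17356 tested genes, 48.3% were higher in CL basal and 11.7% were at least 1.5-fold lower. All 12 luminal markers were lower, 11 of them by at least 1.5-fold, and their summed level was 6840 TPM in Ctrl basal and 3913 in CL basal. The summed level of 10 fibroblast markers was 157.2 TPM in Ctrl basal and 113.1 in CL basal, with 9 of 10 lower. For 8 endothelial markers it was 297.8 and 245.7 TPM in the same order with 7 of 8 lower, although the gate removed cells with CD31, the product of *Pecam1* (5503 and 4266 counts). For 8 adipocyte markers it was 82.61 and 60.9 TPM with 5 of 5 tested genes lower, for 10 macrophage markers 59.14 and 42.41 TPM with 6 of 7 tested genes lower, and for 8 lymphoid markers 7.665 and 7.607 TPM. Of the macrophage sums, *Cd14* alone made up 33.23 and 21.05 TPM. Of the 7 tested macrophage markers, 3 were lower beyond counting error and 0 higher beyond it, and *Csf1r* was higher in value (64 and 89 counts). Of those not tested, *Adgre1* (7 and 10) and *Fcgr1* (0 and 4) were higher and *C1qb* (12 and 6) was lower. At 0 in Ctrl basal were the macrophage marker *Fcgr1* and the adipocyte marker *Retn*, and no marker was at 0 in CL basal. In bulk samples such as these, fewer cells of a type and less RNA per cell cannot be told apart. The part of these other cells in the differences described next was not tested.

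Of the 10 genes, 8 were higher in CL basal than in Ctrl basal and 2 were slightly lower, where 48.3% of all tested genes were higher. *Fgf1*, *Fgf7* and *Fgfr1* lay so near 0 that other scalings turned their sign, which made it 7 higher and 3 lower with scaling by total counts and 10 and 0 with the upper quartile. The log2 fold change of CL basal over Ctrl basal (counts scaled to library size, with a prior count of 2) had a median of 0.40 over the 10 genes, beside -0.006 over all 17356 genes tested. For 6 genes, *Fgf2*, *Fgfr2*, *Fgfr3* and the 3 Sprouty genes, the 95% counting interval lay above 0. This was so for 25.3% of all tested genes, and the interval lay below 0 for another 25.3% of them and for 0 of the 10. At least 1.5-fold higher were 2 of the 10 genes, *Spry1* and *Fgf2*, and 0 were 1.5-fold lower, where 6.34% of all tested genes were higher and 11.7% lower by that much. No member reached 2-fold, which 2.07% of all genes did upwards and 4.78% downwards (360 and 830 genes, or 495 and 655 once a trend of the change on mean expression was removed).

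**Figure D1:**
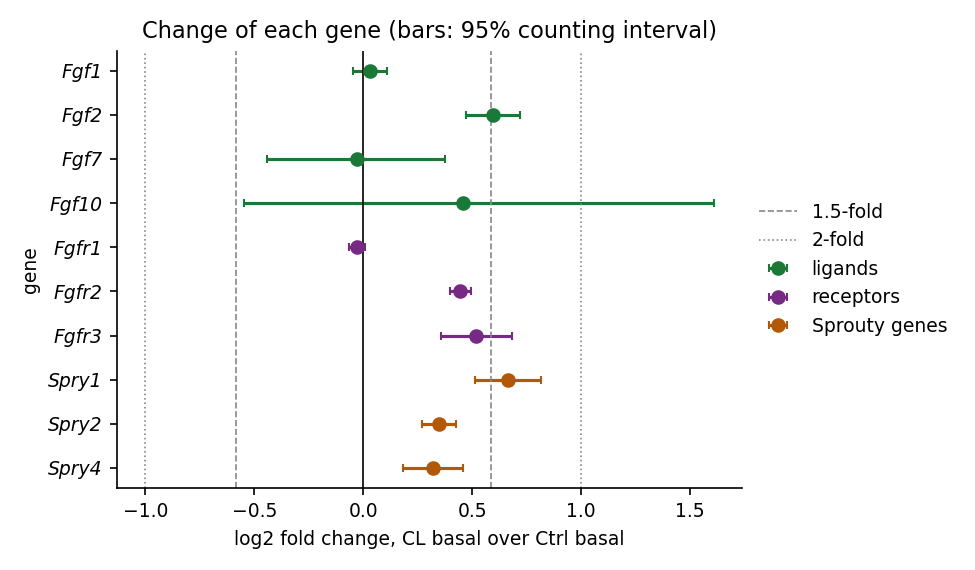
Log2 fold change of CL basal over Ctrl basal for each gene (horizontal axis), with the 95% exact counting interval as bars; colours mark ligands, receptors and Sprouty genes, and dashed and dotted lines mark 1.5-fold and 2-fold. *Fgf2*, *Fgfr2*, *Fgfr3* and the 3 Sprouty genes lie to the right of 0 with their whole interval, while *Fgf1*, *Fgf7* and *Fgfr1* sit at 0 and the interval of *Fgf10* spans it.

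Per exonic length, the 10 genes ranged over more than 2 orders of magnitude. In Ctrl basal the order was *Fgfr1* (80.98 TPM), *Spry2* (78.34), *Fgfr2* (41.16), *Fgf1* (40.34), *Spry1* (13.99), *Spry4* (12.03), *Fgf2* (9.205), *Fgfr3* (5.073), *Fgf7* (2.236) and *Fgf10* (0.2125). The counting intervals overlapped for the neighbours *Fgfr1* and *Spry2*, *Fgfr2* and *Fgf1*, and *Spry1* and *Spry4*. In CL basal, *Spry2* (101.2 TPM) stood above *Fgfr1* (80.46), and the other 8 genes kept their places, with only *Spry4* (15.23) and *Fgf2* (14.11) overlapping.

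**Figure D2:**
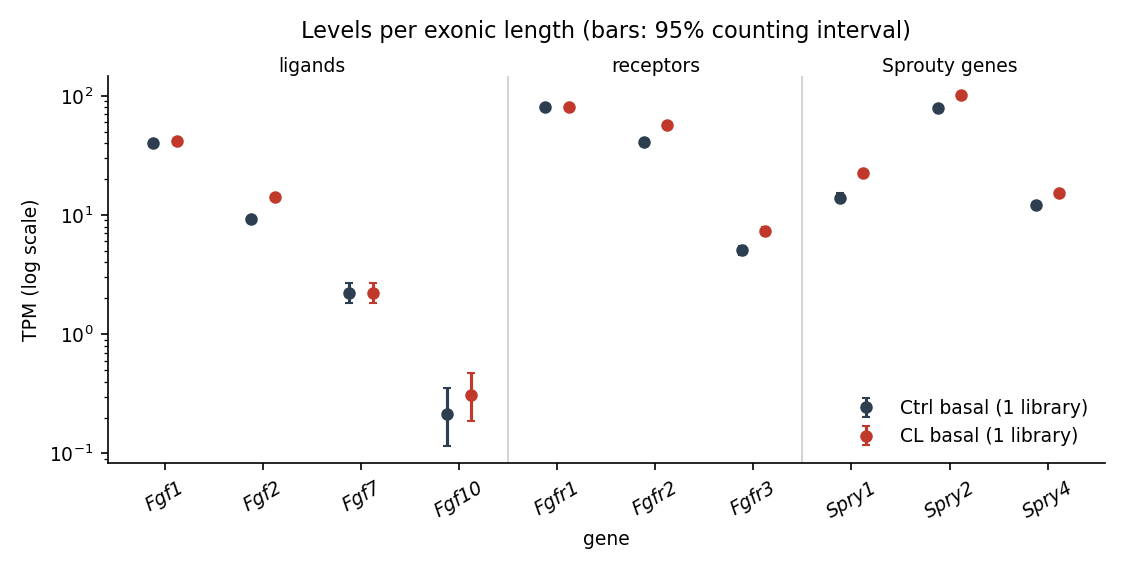
Level of each gene in TPM (vertical axis, log scale) in the Ctrl basal library (dark) and the CL basal library (red), 1 library each, with 95% exact Poisson intervals as bars. Levels run from 0.2125 TPM for *Fgf10* in Ctrl basal to 101.2 TPM for *Spry2* in CL basal, and the red points of *Fgf2*, *Fgfr2*, *Fgfr3*, *Spry1*, *Spry2* and *Spry4* stand above the dark ones.

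Among the 4 ligands of this set, only *Fgf2* differed between the libraries beyond counting error. *Fgf2* (chromosome 3, 37348346 to 37410108, GRCm38), basic FGF, a ligand without a classical signal peptide that binds heparan sulfate tightly, had 894 counts in Ctrl basal and 1353 in CL basal. That is a level 1.51-fold higher in the CL basal library, with a log2 fold change of 0.59 (95% counting interval 0.47 to 0.72), which lies at the edge of the 1.5-fold threshold (0.585). *Fgf1* (chromosome 18, 38838673 to 38929404), acidic FGF, which can activate all the FGF receptors, had 2685 counts in Ctrl basal and 2748 in CL basal. It was the most abundant of the 4 ligands in both libraries and was level, with a log2 fold change of 0.03 (-0.05 to 0.11). Within a library the ratio of *Fgf2* to *Fgf1* needs no scaling between libraries. Per length it was 0.228 in Ctrl basal and 0.337 in CL basal, 1.48 times as high (95% interval 1.34 to 1.64).

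The counts of *Fgf2* may not be fully its own. On the other strand lies *Nudt6*, a nudix hydrolase gene whose transcript is known as an antisense RNA of *Fgf2*, and the 2 genes share 640 of the 6782 exonic bases of *Fgf2*. *Nudt6* had 313 counts in Ctrl basal and 439 in CL basal, a log2 fold change of 0.48 (0.27 to 0.70), and the ratio of *Fgf2* to *Nudt6* was 1.08 times as high in CL basal (0.909 to 1.28). *Gm43439*, with 255 shared bases on the same strand, had 47 and 88 counts in the same order. The use of strand in the counting was not given in the sources used here, so reads of the shared bases cannot be assigned to one gene. With all counts of *Nudt6* and *Gm43439* taken away from *Fgf2*, its log2 fold change was 0.62.

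*Fgf7* and *Fgf10*, paracrine ligands made mainly by mesenchymal cells that signal to the epithelial form of *Fgfr2*, were scarce in the sorted cells. *Fgf7* (chromosome 2, 126034658 to 126091185), keratinocyte growth factor, had 104 counts in Ctrl basal and 102 in CL basal, with a log2 fold change of -0.03 (-0.44 to 0.38). *Fgf10* (chromosome 13, 118669791 to 118792115) had 14 and 20 counts in the same order. Its log2 fold change of 0.46 had an interval from -0.55 to 1.61, so a difference of *Fgf10* was not detectable at this depth. Beside these values, the fibroblast marker *Pdgfra* had 649 counts in Ctrl basal and 463 in CL basal, and *Dcn* had 2356 and 1462. A part of these cells in the *Fgf7* and *Fgf10* counts was not tested.

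The receptors differed in how they moved. *Fgfr1* (chromosome 8, 25513654 to 25575718) was the most abundant receptor and was level, with 11452 counts in Ctrl basal and 11235 in CL basal. Its log2 fold change was -0.03 with a narrow interval of -0.07 to 0.01. *Fgfr2* (chromosome 7, 130162451 to 133123350), whose epithelial splice form is the receptor of *Fgf7* and *Fgf10*, had 6087 counts in Ctrl basal and 8298 in CL basal. It was 1.36-fold higher in CL basal, a log2 fold change of 0.44 (0.40 to 0.49). The span given for *Fgfr2* is that of the deposited coordinates, and is far longer than that of any other of the 10 genes. *Fgfr3* (chromosome 5, 33721674 to 33737068), the least abundant of the 3, had 520 counts in Ctrl basal and 747 in CL basal, 1.43-fold higher with a log2 fold change of 0.52 (0.36 to 0.68). Counts per gene do not separate the epithelial and mesenchymal splice forms of these receptors.

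The make-up of the receptor class therefore differed between the libraries. Of the receptor counts, *Fgfr2* made up 33.7% in Ctrl basal (95% exact binomial interval 33.0 to 34.4%) and 40.9% in CL basal (40.2 to 41.6%). *Fgfr1* made up 63.4% (62.7 to 64.1%) and 55.4% (54.7 to 56.1%) in the same order, and *Fgfr3* 2.88% (2.64 to 3.13%) and 3.68% (3.43 to 3.95%). Per length, *Fgfr2* stood at 0.508 of *Fgfr1* in Ctrl basal and at 0.706 in CL basal, a ratio 1.39 times as high (1.33 to 1.45). *Fgfr3* against *Fgfr1* was 1.46 times as high (1.30 to 1.65), whereas *Fgfr3* against *Fgfr2* was 1.05 times as high with an interval that holds 1 (0.936 to 1.19). The summed level of the 3 receptors was 127.2 TPM in Ctrl basal and 144.7 in CL basal. *Fgfr2* shares 314 of its 10328 exonic bases with *Ctbp2*, which had 2519 and 2589 counts and a log2 fold change of 0.04. With all counts of *Ctbp2* taken away, and not those of the shared bases alone, the log2 fold change of *Fgfr2* was 0.68, past 1.5-fold. *Fgfr3* shares 998 of 7158 bases with *G630022F23Rik* on the other strand, which had 47 and 95 counts, and without them its log2 fold change was 0.46.

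**Figure D3:**
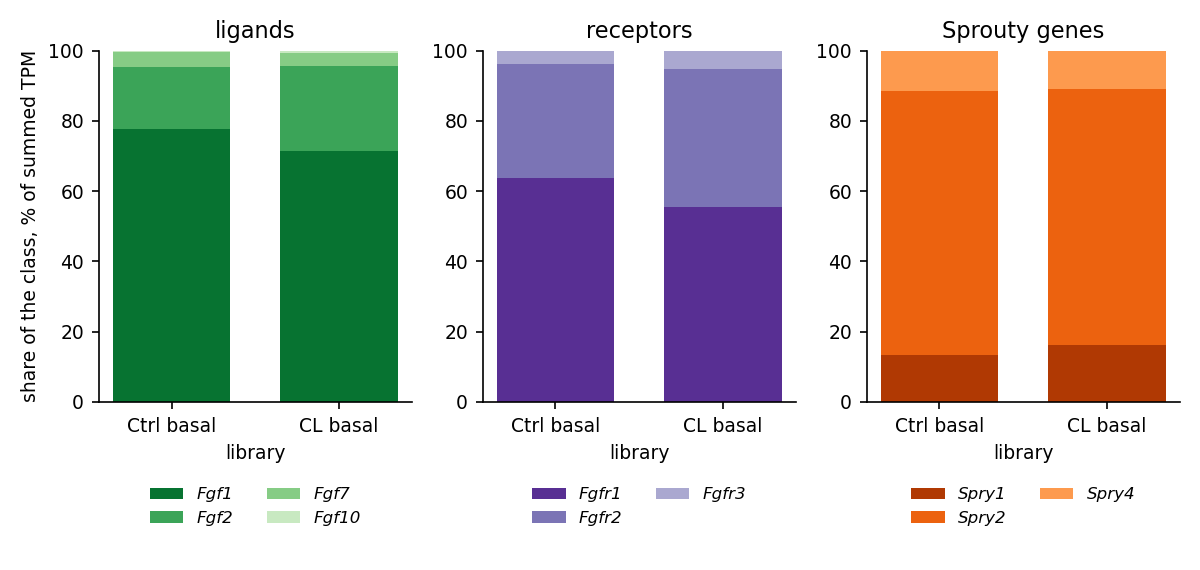
Share of each gene in the summed TPM of its class (vertical axis, percent) for ligands, receptors and Sprouty genes, with 1 bar for the Ctrl basal library and 1 for the CL basal library. *Fgfr2* takes 32.4% of the receptor bar in Ctrl basal and 39.3% in CL basal, *Fgf2* takes 17.7% and 24.1% of the ligand bar, and *Spry2* holds most of the Sprouty bar in both (75.1% and 72.8%).

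The 3 Sprouty genes, which encode intracellular inhibitors induced by receptor tyrosine kinase signals, were each higher in CL basal. *Spry1* (chromosome 3, 37639947 to 37644598) had 582 counts in Ctrl basal and 925 in CL basal. Its log2 fold change of 0.66 (0.51 to 0.82), or 1.58-fold, was the largest of the 10 genes, and 5.12% of all tested genes had a value at least as high. *Spry2* (chromosome 14, 105891949 to 105896819), the most abundant Sprouty gene per length, had 2339 counts in Ctrl basal and 2985 in CL basal, a log2 fold change of 0.35 (0.27 to 0.43). *Spry4* (chromosome 18, 38586268 to 38601268) had 790 and 988 counts in the same order, a log2 fold change of 0.32 (0.18 to 0.46). All 3 thus stood above their Ctrl basal level with their whole interval, by less than 2-fold each.

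The Sprouty genes did not all differ by the same factor. *Spry2* and *Spry4* kept their ratio to each other within counting error (1.02 times, 0.914 to 1.14), while *Spry1* against *Spry2* was 1.25 times as high in CL basal (1.11 to 1.40). Summed over the class, the level was 104.4 TPM in Ctrl basal and 139.0 in CL basal. With *Fgfr1* as the reference, *Spry1* was 1.62 times as high in CL basal (1.45 to 1.81), *Spry2* 1.30 times (1.22 to 1.38) and *Spry4* 1.27 times (1.16 to 1.41), comparisons that need no scaling between libraries. *Spry1* shares 710 of its 2906 exonic bases with *Gm42922* on the other strand, which had 153 and 226 counts. With these taken away, the log2 fold change of *Spry1* was 0.70.

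The promoter windows of *Spry1* and *Spry2*, the Sprouty genes of this set with a window in the RefSeq table used, and that of *Fgf2* are shown as examples of genes that were higher in CL basal together, with *Spry1* and *Fgf2* being those past 1.5-fold. Each runs from 250 bases before to 50 after the annotated start (RefSeq, GRCm38.p6), 5′ to 3′ along the gene's strand. *Spry1* is on the plus strand (chr3:37639697-37639996), *Spry2* on the minus strand (chr14:105896770-105897069) and *Fgf2* on the plus strand (chr3:37348403-37348702). Capitals mark matches on either strand to CCGGAA, the core letters of many ETS factor sites, to GGGCGG, the GC box, or to TGANTCA, the AP-1 site.
*Spry1*: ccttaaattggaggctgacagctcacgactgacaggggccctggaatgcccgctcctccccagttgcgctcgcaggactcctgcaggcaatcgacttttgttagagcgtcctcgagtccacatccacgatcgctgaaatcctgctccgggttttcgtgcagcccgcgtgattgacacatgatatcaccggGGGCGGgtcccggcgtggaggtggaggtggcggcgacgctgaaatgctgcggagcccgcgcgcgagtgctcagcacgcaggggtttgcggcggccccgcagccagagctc
*Spry2*: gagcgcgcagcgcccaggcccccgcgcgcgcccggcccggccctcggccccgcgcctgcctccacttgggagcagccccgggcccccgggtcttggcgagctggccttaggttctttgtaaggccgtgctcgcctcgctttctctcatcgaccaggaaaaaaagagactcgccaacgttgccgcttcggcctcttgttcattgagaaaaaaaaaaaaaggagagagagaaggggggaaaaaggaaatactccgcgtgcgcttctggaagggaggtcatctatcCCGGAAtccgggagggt
*Fgf2*: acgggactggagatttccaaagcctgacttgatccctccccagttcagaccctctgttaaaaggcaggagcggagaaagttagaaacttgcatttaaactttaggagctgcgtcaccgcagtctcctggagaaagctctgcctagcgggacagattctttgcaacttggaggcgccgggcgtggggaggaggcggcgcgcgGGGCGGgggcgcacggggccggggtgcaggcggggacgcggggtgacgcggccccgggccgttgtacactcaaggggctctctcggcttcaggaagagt
The 3 windows were rich in G and C (64.3% in *Spry1*, 62.7% in *Spry2* and 62.7% in *Fgf2*). *Spry1* held 1 GC box, 60 bases before the start, and *Fgf2* held 1, 49 bases before it. *Spry2* held 1 match to CCGGAA at base 34 from the start and no GC box. Of the other genes with an interval above 0, the 2 windows of *Fgfr3* held 6 GC box matches and the window of *Fgfr2* held none of these motifs. Of all 32851 windows of this length, 35.7% held a GC box, 14.9% held CCGGAA and 7.81% held TGANTCA, which none of the 3 windows held. Overlapping matches were counted separately. The 10 genes had 8 windows in the table, for 7 genes, of which 5 held a GC box, 1 held CCGGAA and 0 held TGANTCA. These matches describe the letters of the windows and are not evidence of binding.

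Among abundant genes, changes of the size seen for *Spry1* and *Fgf2* were scarcer. Of the 7097 genes whose reads summed to 1000 or more, a class that holds all of the 10 but *Fgf7* and *Fgf10*, 1.06% were at least 1.5-fold higher and 2.21% lower. Their median log2 fold change was 0.045. Their counting intervals are narrow, and 41.6% of these genes had an interval above 0 and 27.0% below it, so that an interval above 0 is common at such counts. How far 2 libraries of the same group would differ is not known from these data.

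**Figure D4:**
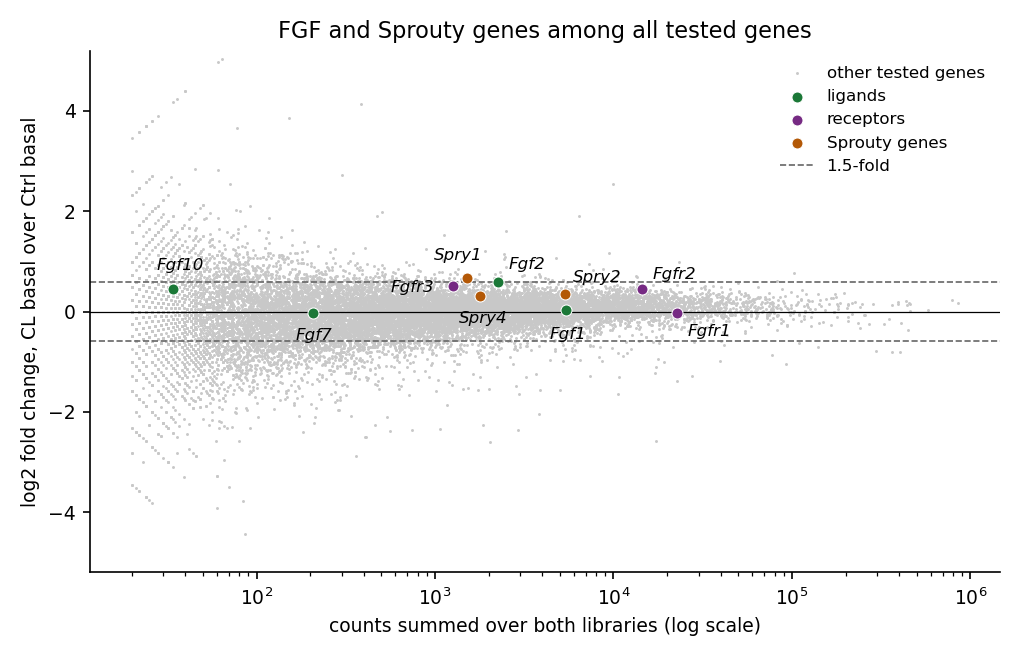
Log2 fold change of CL basal over Ctrl basal (vertical axis) against counts summed over both libraries (horizontal axis, log scale) for all 17356 tested genes in grey, with the 10 genes in colour by class and dashed lines at 1.5-fold. *Spry1* and *Fgf2* lie at the upper dashed line in a range of counts where the grey cloud has narrowed, and *Fgf1*, *Fgf7* and *Fgfr1* lie at 0.

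The rest of the pathway was described by 6 lists. The 11 other feedback inhibitors found (of 12 listed, with *Spry3* not analysed here) were all above 0 (9 of 11 with scaling by total counts), with a median log2 fold change of 0.23, 7 intervals above 0 and none past 1.5-fold. Of all tested genes 48.3% were above 0 and 25.3% had an interval above 0, a share that was 41.6% among genes with 1000 counts or more. *Dusp6*, the phosphatase that inactivates ERK and a textbook FGF response gene, had 4113 counts in Ctrl basal and 5352 in CL basal, a log2 fold change of 0.38 (0.32 to 0.44). *Dusp7*, a related phosphatase picked out after its values were seen, had 4251 and 5813 counts and the largest value of the list (0.45, 0.39 to 0.51). Of the 13 transcriptional targets of the cascade, 12 were tested, 11 were above 0 (10 with scaling by total counts), and the median was 0.27 with 7 intervals above 0 and 0 below, to be read beside the same shares of all genes. The ETS factor *Etv4* had 224 counts in Ctrl basal and 299 in CL basal (0.41, 0.16 to 0.67). The related *Etv5*, another textbook FGF response gene, had 333 and 350 counts (0.07, -0.15 to 0.29), a difference not detectable at this depth. The list also holds immediate early genes that many stimuli induce, such as *Fos* (21578 and 28699 counts) and *Egr1* (38465 and 46971).

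The adaptors and kinases between receptor and nucleus were nearly level. The 23 genes of that list had a median log2 fold change of 0.09, between -0.57 and 0.36, and 0 of them was past 1.5-fold in either direction. By sign, 17 were above 0 and 6 below (16 and 7 with scaling by total counts), where 48.3% of all tested genes were above 0. Of their counting intervals, 12 lay above 0 and 5 below, where among all genes with 1000 counts or more 41.6% lay above and 27.0% below, so that the intervals of this list were near the background. The genes of heparan sulfate and FGF binding (19 tested) had a median of 0.05, with 3 of 19 at least 1.5-fold lower and 0 higher. The share that was lower was near the 11.7% of all tested genes, and the 3 genes are given for their values alone. Among genes with 1000 counts or more 2.21% were at least 1.5-fold lower, and of the 3 only *Sulf2* lies in that class. *Sulf2*, an extracellular sulfatase that trims heparan sulfate, had 1180 counts in Ctrl basal and 750 in CL basal, a log2 fold change of -0.66 (-0.79 to -0.52). *Fgfbp1*, which carries FGF ligands out of the matrix, had 84 and 32 counts (-1.34, -2.03 to -0.79). The third, *Fgfbp3*, had 46 and 10 counts (-2.00, -3.36 to -1.20) and is named because it completes the count.

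Of the 18 other FGF ligands, 8 had enough counts to be tested, with a median log2 fold change of -0.19, and 4 had no count in either library. At least 1.5-fold higher were 2 of the 8 and at least 1.5-fold lower were 2, beside 6.34% and 11.7% of all tested genes, and 3 of these 4 had few counts. *Fgf20* had 35 counts in Ctrl basal and 81 in CL basal (1.16, 0.62 to 1.82). It shares 202 of its 1678 exonic bases with *Micu3* on the other strand, which had 587 and 841 counts. The other 3 past 1.5-fold, *Fgf18* (25 and 43 counts), *Fgf17* (28 and 7) and *Fgf12* (22 and 14), had too few counts for the rule on named genes. *Fgf23*, an endocrine FGF best known as a hormone of bone that controls phosphate, was chosen after its values were seen. It had 862 counts in Ctrl basal and 734 in CL basal, a log2 fold change of -0.23 (-0.38 to -0.09). Its level was 33.18 and 28.61 TPM, above *Fgf2* in both libraries, and its exons overlap no other gene of the table. *Fgf21* also stood above *Fgf2*, with 17.55 TPM in Ctrl basal and 14.87 in CL basal, where the counting intervals of *Fgf21* and *Fgf2* overlapped. The 8 tested genes among other receptors and co-receptors had a median of -0.035 with 1 of 8 at least 1.5-fold higher, *Flrt1* (14 and 30 counts), beside 6.34% of all tested genes. *Fgfr4* had 88 counts in Ctrl basal and 64 in CL basal, and *Fgfrl1*, the receptor that lacks a kinase domain, had 2065 and 2016.

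**Figure D5:**
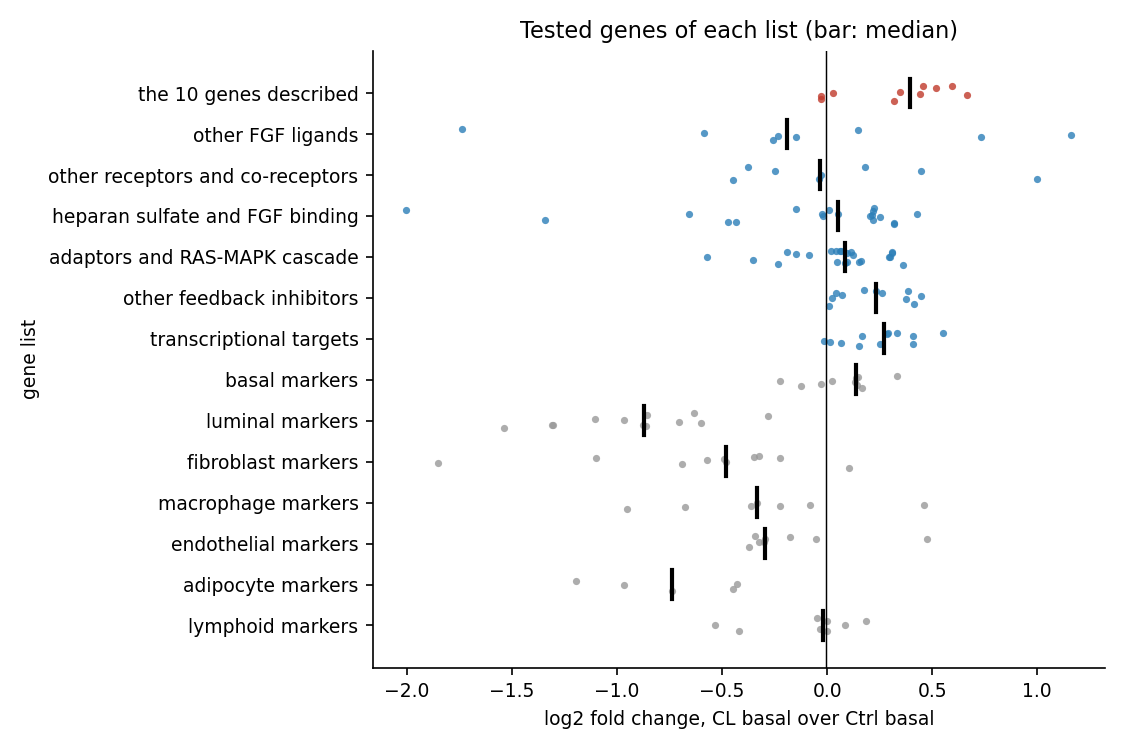
Log2 fold change of CL basal over Ctrl basal (horizontal axis) of the tested genes of each list, 1 point per gene with small vertical jitter, and a black bar at the median of the list; red marks the 10 genes described, blue the rest of the FGF pathway and grey the cell type markers. The medians of the 10 genes (0.40), of other feedback inhibitors (0.23) and of transcriptional targets (0.27) lie right of the line of all tested genes (-0.006), and those of luminal (-0.87), adipocyte (-0.74) and fibroblast (-0.48) markers lie left of it.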

How the data were processed

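RNA of sorted basal cells was sequenced by the study on an Illumina HiSeq instrument. The authors deposited raw counts of reads over the exons of each gene, without normalization, in the column layout of featureCounts, with the exonic length of each gene. The submitters' processing notes name the builds GRCm38 and mm10. The aligner, the annotation release and the use of strand are not given in the sources used here. The table also holds a ratio of the libraries and its log2, which were not used. Even values were in excess among low counts: for Ctrl basal 67.9% of the values from 1 to 20 and 49.7% of those above 1000 were even, and for CL basal 68.7% and 49.9%, so mates of a pair may each have been counted. Counting intervals are then too narrow, and PCR copies would narrow them further.

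Counts were scaled by effective library sizes (TMM, edgeR 4.0.16 in R 4.3.3). Log2 fold changes used a prior count of 2 on genes whose 2 counts summed to at least 20. Intervals were exact (Clopper-Pearson for shares and fold changes, Poisson for levels, conditional odds ratio for ratios of genes), with scipy 1.17.1 in Python 3.11.15. The functions were tested on simulated data. With 1 library per group no model with a spread between replicates can be fitted, and a call is a size of change. Genes named besides the 10 were pathway genes past 1.5-fold with at least 100 counts, *Dusp6*, *Etv4*, *Etv5* and *Nudt6*. Any other gene named is an example of a list or was chosen after its values were seen. The 10 genes and all lists were chosen with earlier results of these data known. Alternatives were other scalings (total counts, DESeq2 1.42.0 size factors, upper quartile), prior counts of 0.5 and 5, other filters, a thinned deeper library, removal of a trend on mean expression (lowess, statsmodels 0.14.6) and halved counts. A filter at 1000 counts and subtraction of overlapping genes were added after seeing the data.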

Additional observations from a re-analysis of the deposited data

How the results depend on the processing

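The values of the 10 genes moved little. The 11 alternatives gave 105 values. A filter does not alter the value of a gene, so the 10 values without a filter and the 9 at 100 counts could not move. Of the 105, 101 stayed within the 95% counting interval and neither *Spry1* nor *Fgf2* changed sign. The other 4 were *Fgfr1* with total counts (-0.07) and without the trend on mean expression (-0.12), and *Fgfr2* without the trend (0.36) and with all *Ctbp2* counts subtracted (0.68), not those of the shared bases alone. Signs turned for genes near 0, *Fgf1* with total counts (-0.008) and without the trend (-0.025), *Fgf7* with the upper quartile (0.005) and without the trend (0.066), and *Fgfr1* with the upper quartile (0.006). The count of genes at least 1.5-fold higher fell from 2 to 1 with total counts, with the deeper library thinned and without the trend, in each case because *Fgf2* (0.56 to 0.63 over its alternatives) lies at the threshold. It was 3 with overlapping genes subtracted, and *Spry1* (0.63 to 0.70) passed under each alternative. Genes at least 2-fold lower and higher numbered 830 and 360, and depended on the filter, which sets how many genes are tested, with 3207 and 1342 without a filter, 246 and 65 at 100 counts, and 37 and 11 at 1000 counts. On the same genes they were 655 and 495 without the trend and 736 and 431 with the upper quartile. Scaling by total counts put the median of all tested genes at -0.045 and the upper quartile put it at 0.029. List medians near 0 shifted too. That of other receptors and co-receptors was -0.073 with total counts and 0.002 with the upper quartile. In the same order the adaptors and cascade had 0.047 and 0.122, and heparan sulfate and FGF binding had 0.013 and 0.088. With counts halved, the intervals of the 6 genes above 0 stayed above it. No paired analysis was possible because there was a single library on each side. The depth was least for *Fgf10*, which drops out at 100 counts.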
